A study of Rattus norvegicus with 7 samples.

Results

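A set of 10 genes of fibroblast growth factor (FGF) signalling were followed here through single-nucleus RNA of rat kidney. They were taken by symbol from the 25399 genes of the deposited tables, and all 10 were present. Fgfr1, Fgfr2 and Fgfr3 encode receptors. Il17rd, Spry1, Spry2, Spry4 and Dusp6 encode inhibitors that the pathway itself switches on, and Etv1 and Etv5 encode transcription factors of the ETS family. The genes were chosen by their place in the pathway and by earlier group differences of Fgfr2, Il17rd and Etv1 in these same UMIs, so the group values of all 10 are a description and are not used as evidence.

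An FGF ligand, held by heparan sulphate or by a klotho co-receptor, brings receptor tyrosine kinases together in pairs. The adaptor Frs2 then links the receptor to Ras, Raf, Mek and a MAP kinase, which raises transcription through ETS factors. Sprouty proteins act on the relay at the level of Ras and Raf, Dusp6 removes the activating phosphates from that kinase, and Il17rd (also called Sef) is a membrane protein that restrains the same relay. In the developing kidney Fgfr2 is known for its part in branching of the ureteric bud, the source of the collecting duct, and in the survival of nephron progenitors.

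The rats belonged to the HSRA model, a line in which some animals are born with a single kidney, and were 4 weeks old. By title, 3 libraries came from animals with 1 kidney and 4 from animals with 2. The protocols name 3 animals as HSRA-S and another 4 as HSRA-C, and these names meet the titles only through their equal numbers. Neither group has a drug, transgene or deletion on its labels, and the labels are silent on sex. Each library was made from nuclei of a central piece of a stored kidney, cortex and medulla together.

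Each 1-kidney library held 5581726 to 18338754 UMIs (unique molecular identifiers, each 1 captured RNA molecule) and each 2-kidney library 15168020 to 27069632, over 31384 retained nuclei. Median UMIs per nucleus ran from 1440 to 1974 and from 1872 to 2513. The 1-kidney replicate 1 was the shallowest library, with 2263 nuclei. Pairs of libraries shared 3 to 14 barcodes. A code in the library names, whose meaning is not stated, splits them into set P1117 (5 libraries) and set P1117B (2-kidney replicates 3 and 4). Set P1117B holds no 1-kidney library, so fold values within set P1117, 3 libraries against 2, are given beside the others. Clusters were named from marker genes as 14 classes. A further 7 clusters, with 21.1% of the nuclei and 45.03% of the UMIs, fitted no name. The largest of these, called the Slc34a1-rich cluster here after a phosphate transporter of the proximal tubule among its leading genes, held 2877 nuclei at a median of 9601 UMIs. Proximal tubule transcripts were present in every class, the lowest Slc34a1 level being that of podocytes.

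Levels are UMIs per 1000000 UMIs of the same nuclei (CPM). They follow transcript length and the 3' capture, so levels are compared between classes for 1 gene and not between genes. Differences between groups are log2 folds, 1-kidney over 2-kidney, with the standard error (SE) from edgeR, and a value below 0 means lower in the 1-kidney libraries.

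Fgfr2 RNA was concentrated in few classes. The mean over 7 libraries was 423 ± 90.5 CPM (SD) in podocytes, the filtering cells of the glomerulus, and 293 ± 185 in principal cells, which take up water and sodium in the collecting duct. Mural cells of the vessels stood at 354 ± 230 (143 UMIs from 209 nuclei) and urothelium at 225 ± 86.3 (5 libraries, 97 UMIs from 151 nuclei). Connecting tubule and distal convoluted tubule followed at 95.0 ± 44.9 and 90.6 ± 43.7, thick ascending limb at 49.5 ± 17.2, and the proximal tubule was last at 9.35 ± 2.27. In the order podocytes, mural cells, principal cells and urothelium no step between neighbours exceeded the larger SD, and only neighbours were compared. These SDs pool both groups of animals, which lay far apart in principal cells, as given below. The step from urothelium to connecting tubule was larger and held in 5 of 5 libraries. Principal cells and podocytes held 22.2% and 21.2% of the 6909 Fgfr2 UMIs, beside 3.61% and 2.64% of all UMIs.

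Fgfr1 RNA was spread over the whole kidney. Its class means ran from 65.9 ± 25.1 CPM in intercalated cells, which handle acid and base, to 163 ± 34.8 in podocytes (SD, n = 7), and no step between neighbouring classes exceeded the larger SD. Fibroblasts at 160.3 ± 40.5 and endothelium at 151 ± 26.2 stood next to podocytes. Fgfr3 stood at 34.5 ± 6.84 CPM in the proximal tubule and 4.06 ± 3.53 in podocytes. Its urothelium mean of 82.1 ± 132 came from 11 UMIs in 5 libraries.

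Among the inhibitors, Il17rd reached 241 ± 34.7 CPM in podocytes and 237 ± 93.2 in the thick ascending limb, the salt-reabsorbing segment that dilutes the urine (SD, n = 7). Thin limb stood at 136 ± 53.0 (6 libraries), distal convoluted tubule at 91.1 ± 46.8, connecting tubule at 27.0 ± 14.5 and proximal tubule at 12.3 ± 1.77. Podocytes and thick ascending limb differed by less than the larger SD, and their order turned with the group, with 234 and 166 in the 1-kidney libraries and 246 and 291 in the 2-kidney libraries. The step between the means of thick ascending limb and thin limb exceeded the larger SD, and thick ascending limb lay above thin limb in 5 of 6 libraries. Within the thick ascending limb the level was higher in the cluster with Tmem207, Casr and Cldn16 among its leading genes (395 ± 80.3 in the 2-kidney libraries, n = 4) than in the cluster led by Ppp1r1b (252 ± 88.3).

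The Sprouty genes were sparse, and their highest named classes were not those of Il17rd. Spry1 was at 43.5 ± 23.4 CPM in fibroblasts, 35.2 ± 17.8 in principal cells and 27.6 ± 8.81 in endothelium, and at most 13.6 in the other classes. Spry4 was at 25.6 ± 16.7 in endothelium and 23.2 ± 19.95 in mural cells (10 UMIs there), and at 0.746 ± 1.01 in principal cells. Spry2 gave 417 UMIs in all and no class mean above 9.03. Dusp6 was at 38.6 ± 16.3 in immune cells and 33.3 ± 24.1 in fibroblasts, with 11.1 to 28.8 in the other classes.

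Etv1 was at 102 ± 63.3 CPM in mural cells (40 UMIs there), 65.2 ± 27.2 in immune cells and 59.0 ± 19.9 in fibroblasts (SD, n = 7). In the proximal tubule it was at 45.8 ± 10.7. Thick ascending limb at 31.4 ± 18.7 and principal cells at 25.6 ± 16.9 were low, and podocytes were last at 9.29 ± 8.33. Its highest level lay outside the named classes, in a cluster of 432 nuclei led by Pappa2, Ptgs2 and Nos1, genes known from the macula densa, the salt sensor of the nephron. There it was at 251, 249.6 and 280.4 CPM in the 1-kidney libraries and 121, 209.8, 186 and 116 in the 2-kidney libraries. Within the proximal tubule Etv1 was at 99.3 ± 38.2 CPM in the cluster with Slc22a8 as its leading marker and 13.5 ± 5.96 in that with Slc7a13 of the 2-kidney libraries (SD, n = 4). Etv5 was at 27.3 ± 14.4 in cycling nuclei. All these means pool both groups of animals. Only for Fgfr2 (1 of the 10) was the same named class, podocytes, highest in each group taken alone.

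**Figure D1:**
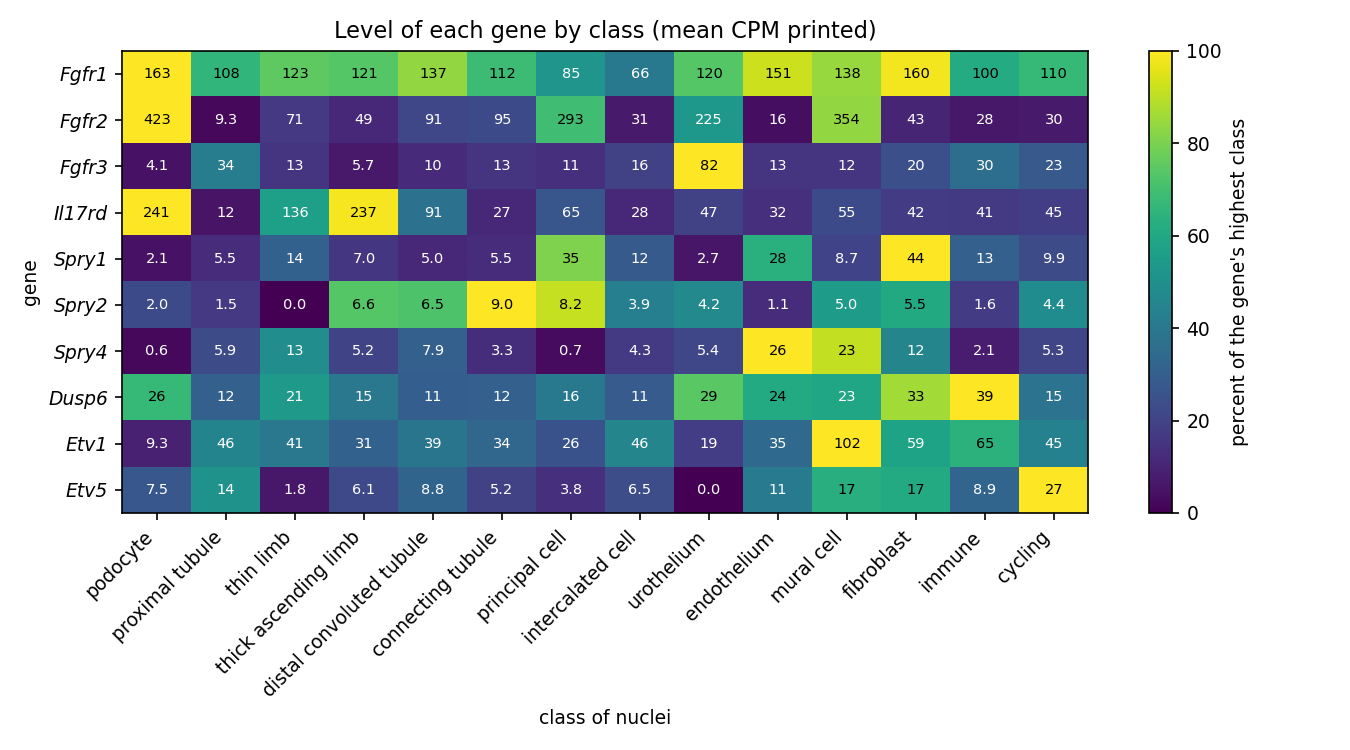
Level of each of the 10 genes (rows) in each of 14 named classes of nuclei (columns). The printed number is the mean CPM over libraries, and the colour is that mean as a percent of the gene's highest class, so rows are not comparable in colour for amount. Fgfr2 is highest in podocytes (423), with principal cells (293) the highest tubule class, and Il17rd is at 241 in podocytes and 237 in thick ascending limb, whose order differs between the groups.

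Across the 14 classes the 10 genes did not share 1 profile. Pearson's r between class means of log2(CPM + 1) was 0.54 for Fgfr2 with Il17rd, 0.012 for Fgfr2 with Fgfr1 and −0.73 for Fgfr2 with Fgfr3. The classes come from the same 7 libraries, so these are descriptions. Among 12311 other genes the class profile of Fgfr2 was most like those of Myo1d (0.89), Bcam and Ajuba (0.88 each), and that of Il17rd most like Erbb4 and Optn (0.82 each) and Tmeff1 (0.77). Fgfr1 was most like Spred1 (0.82), itself an inhibitor of Ras to Raf signalling, and Fgfr3 most like Ppp2r1b (0.97), Frs3 and Tinag (0.96 each). Etv1 was most like Slc22a8, AABR07052405.1 and Slc5a12 (0.93 each), and Slc22a8 and Slc5a12 are transporters of the proximal tubule.

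Summed over all retained nuclei, Fgfr2 and Il17rd were lower in the 1-kidney libraries. Fgfr2 was at 26.7, 27.7 and 36.7 CPM in the 1-kidney libraries and 71.1, 52.2, 71.8 and 69.5 in the 2-kidney libraries. Il17rd was at 34.9, 37.1 and 39.9 CPM against 64.9, 52.1, 68.8 and 68.0. For both genes every 1-kidney library lay below every 2-kidney library, and 2-kidney replicate 2 was the nearest to them. The log2 fold was −1.09 ± 0.17 for Fgfr2 and −0.74 ± 0.14 for Il17rd (SE), and −0.97 and −0.61 within set P1117. Of the 14951 genes tested 10.7% were lower without overlap in the same way, and 2 of the 10 genes were.

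With edgeR 0 of the 10 genes passed an adjusted p under 0.05 in all retained nuclei, where 0% of all genes did. At an unadjusted p under 0.05 there were 2 (Fgfr2 and Il17rd), beside 20.6% of all genes, and DESeq2 called the same 2 among 469 genes. A fold below 0 was seen for 6 of the 10, beside 50.9% of all genes. The other log2 folds were −0.33 ± 0.15 for Fgfr1, −0.15 ± 0.21 for Fgfr3, 0.0074 ± 0.16 for Spry1, 0.20 ± 0.24 for Spry2, −0.41 ± 0.27 for Spry4, 0.20 ± 0.24 for Dusp6, 0.51 ± 0.27 for Etv1 and −0.026 ± 0.21 for Etv5. Of these, Fgfr3, Spry1, Spry4, Dusp6 and Etv5 changed sign within set P1117.

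A sum over all nuclei also follows the mix of classes. With the class shares of UMIs held fixed over 19 classes and clusters, Fgfr2 was at 31.1 ± 6.34 against 64.9 ± 9.75 CPM (SD, n = 3 and 4), a log2 ratio of −1.06 beside −1.12 for the plain means. Il17rd was at 38.5 ± 3.34 against 62.5 ± 9.19, a ratio of −0.70 beside −0.77. Both ratios were nearly as large with these shares held fixed. A class made of several clusters counted as 1 class here, so the mix of clusters inside it was not held fixed, and its part was not tested. The Slc34a1-rich cluster held 22.5% of the Fgfr2 UMIs, beside 38.9% of all UMIs. Its median score for doublets, barcodes with more than 1 nucleus, was the highest of the clusters (0.10). In this cluster Fgfr2 was at 12.9, 15.4 and 21.2 CPM against 38.7, 30.6, 46.0 and 42.5, and Il17rd at 27.8, 30.5 and 32.9 against 52.3, 46.3, 58.0 and 61.6.

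By class, Fgfr2 had a fold below 0 in the 9 of 10 classes in which it passed the filter on low counts. Endothelium was the class in which it did not pass. In 6 of the 9 every 1-kidney library lay below every 2-kidney library. These were connecting tubule, cycling nuclei, distal convoluted tubule, intercalated cells, principal cells and thick ascending limb, where 7.28%, 8.33%, 6.29%, 6.87%, 6.65% and 7.33% of all genes did the same.

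The largest Fgfr2 fold was in principal cells. Their 1-kidney libraries held 102, 96.9 and 160.4 CPM and their 2-kidney libraries 434, 332, 591 and 334. The groups lay far apart, and the log2 fold was −1.80 ± 0.28 (−1.67 within set P1117). In the distal convoluted tubule, where salt is taken up by the thiazide-sensitive transporter, Fgfr2 was at 45.6, 47.7 and 56.5 CPM against 91.7, 99.8, 140.1 and 153. The log2 fold there was −1.27 ± 0.25 (−0.94 within the set).

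Connecting tubule held 35.3, 43.9 and 83.2 CPM of Fgfr2 against 104, 103, 143 and 153, a log2 fold of −1.19 ± 0.27 (−0.92 within the set). Thick ascending limb held 29.03, 29.6 and 38.6 against 63.3, 50.4, 66.7 and 68.5, with −0.90 ± 0.25 (−0.75 within the set). Intercalated cells had −1.17 ± 0.34 and cycling nuclei −1.04 ± 0.41, and in cycling nuclei the group mean leans on 2-kidney replicate 3 (71.7 CPM, beside 24.6 to 32.4 in the other 2-kidney libraries). Without that library the fold in cycling nuclei was −0.63.

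In podocytes, where the Fgfr2 level was highest, the groups overlapped. The 1-kidney libraries held 322, 291 and 414 CPM and the 2-kidney libraries 413, 496, 493 and 529, with a log2 fold of −0.50 ± 0.19. In the proximal tubule Fgfr2 was at 5.88, 10.9 and 8.79 CPM against 12.9, 10.3, 8.61 and 8.03, and the groups overlapped with a log2 fold of −0.18 ± 0.27. When each nucleus was instead put in the class of its highest marker score, which moved nuclei of unnamed clusters into classes, the proximal tubule fold was −0.81. Whether the Fgfr2 fold differs between classes was not tested.

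**Figure D2:**
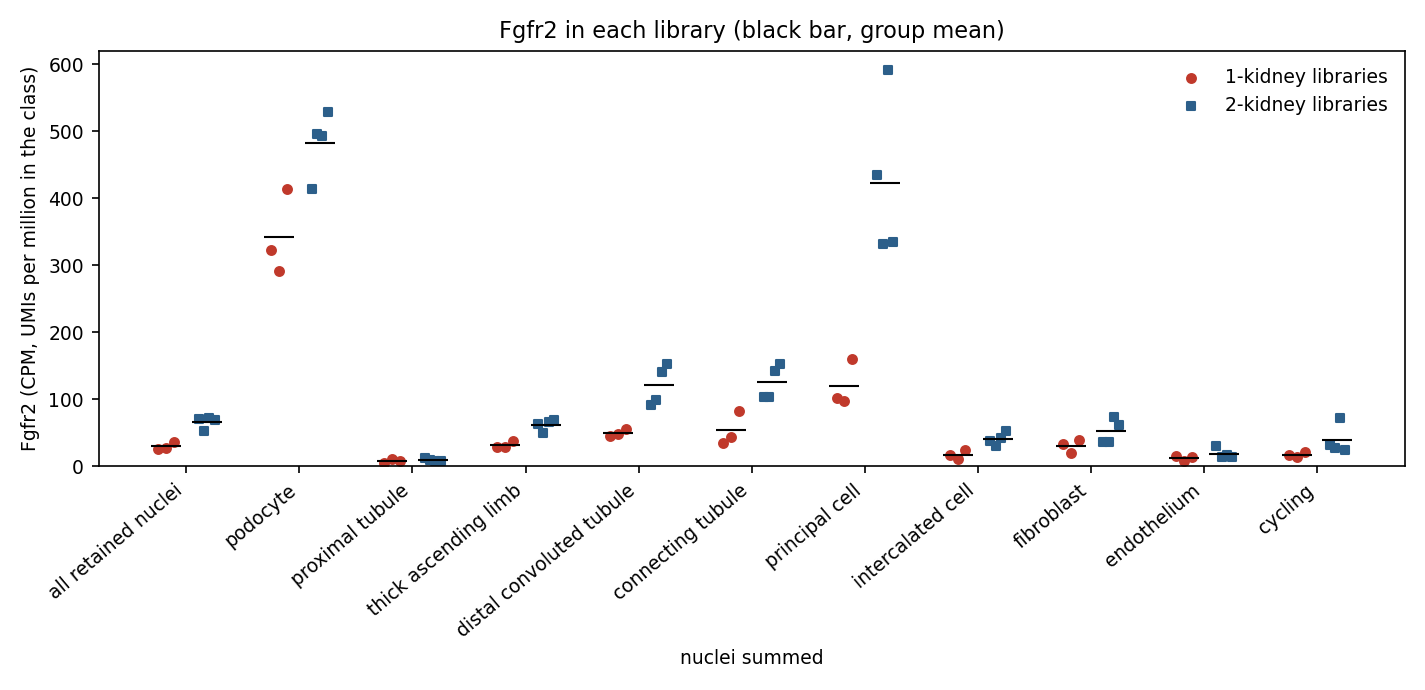
Fgfr2 level (CPM, vertical axis) in each library, in all retained nuclei and in 10 classes. Each red circle is a 1-kidney library (n = 3), each blue square a 2-kidney library (n = 4), and the black bar is the group mean. In principal cells the circles lie at 96.9 to 160.4 and the squares at 332 to 591, and in podocytes the 2 groups meet at 414 and 413.

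The markers that define principal cells were themselves lower in the 1-kidney principal cells. Of the 9 listed markers 8 had a fold below 0, with a median of −0.49, and their summed level was 2459 to 2896 CPM against 2854 to 4283. Proximal tubule transcripts in the same nuclei were higher, 14 of 14 with a fold above 0 and a sum of 16506 to 26306 against 4708 to 18223 CPM. The part of either in the Fgfr2 values was not tested. In thick ascending limb 7 of 9 and in distal convoluted tubule 7 of 7 own markers had a fold below 0, with medians of −0.19 and −0.30.

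With edgeR, 0 of the genes passed an adjusted p under 0.05 in any of the 10 classes. The share of all genes that passed was 0% in cycling nuclei, distal convoluted tubule, intercalated cells, principal cells and proximal tubule, 0.308% in connecting tubule, 0.0502% in endothelium, 0.978% in fibroblasts, 0.0488% in podocytes and 0.0127% in thick ascending limb. At an unadjusted p under 0.05 there were 2 of 4 genes tested in connecting tubule (17.6% of all genes), 3 of 7 in cycling nuclei (14.9%), 3 of 4 in distal convoluted tubule (15.1%) and 1 of 6 in endothelium (11.4%). There were 3 of 6 in fibroblasts (16.1%), 1 of 5 in intercalated cells (13%), 1 of 4 in podocytes (9.77%), 2 of 6 in principal cells (15.7%), 0 of 9 in proximal tubule (16.8%) and 3 of 4 in thick ascending limb (14.6%). DESeq2 called Fgfr2 and Il17rd in distal convoluted tubule and Fgfr2 in principal cells. Without 2-kidney replicate 1, edgeR called Fgfr2 in connecting tubule, distal convoluted tubule and principal cells, Il17rd in distal convoluted tubule and Etv1 in cycling nuclei, distal convoluted tubule and thick ascending limb. Further calls arose in connecting tubule and principal cells without 1-kidney replicate 3 or 2-kidney replicate 2 (Fgfr2), in principal cells without 2-kidney replicate 4 (Fgfr2), in distal convoluted tubule without 2-kidney replicate 4 (Il17rd) and in thick ascending limb without 2-kidney replicate 2 (Etv1). Leaving out 1 library also changed the number of all genes called in these classes, and the ranges are given at the end. These calls are therefore not read as a result about the 10 genes.

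Il17rd had a fold below 0 in 10 of 10 classes and no overlap in 4 of them. Beside the distal convoluted tubule and thick ascending limb these were endothelium, where 6.45% of all genes were lower without overlap, and fibroblasts, where 9.05% were. In the distal convoluted tubule Il17rd was at 42.1, 62.0 and 45.2 CPM against 144, 96.4, 161 and 86.6, a log2 fold of −1.27 ± 0.28 (−1.24 within set P1117). In the thick ascending limb it was at 135, 179.8 and 182 against 281, 183, 401 and 298, a fold of −0.78 ± 0.24 (−0.44 within the set). There 2-kidney replicate 2 lay next to the 1-kidney libraries. The cluster with Tmem207, Casr and Cldn16, where Il17rd was higher, held 68, 84 and 63 nuclei against 69, 125, 245 and 227. The cluster led by Ppp1r1b held 248, 262 and 390 against 281, 556, 378 and 550. The part of this mix in the Il17rd fold was not tested.

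Fibroblasts held 33.1, 18.1 and 31.0 CPM of Il17rd against 67.7, 57.1, 39.6 and 46.6, a fold of −1.06 ± 0.39, from 17 UMIs in the 1-kidney libraries. Endothelium had −0.98 ± 0.34, connecting tubule −0.89 ± 0.43, principal cells −0.82 ± 0.43 and intercalated cells −0.81 ± 0.40. The last 3 leaned on single libraries. Connecting tubule was at −0.59 without 1-kidney replicate 1 and −1.34 without 1-kidney replicate 2, principal cells at −0.33 without 2-kidney replicate 3, and intercalated cells at −0.45 without 1-kidney replicate 2 and −1.26 without 1-kidney replicate 3. Cycling nuclei, at −0.59 ± 0.33, leaned on single libraries too, with −0.18 without 1-kidney replicate 2 and −1.16 without 1-kidney replicate 3. Podocytes held 227, 249.4 and 226 CPM against 186, 236, 296 and 267, a fold of −0.077 ± 0.20 that turned to 0.13 within set P1117. The proximal tubule fold was −0.14 ± 0.22, and −0.56 with classes by marker score.

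Fgfr1 had a fold below 0 in 10 of 10 classes as well, from −0.16 ± 0.22 in endothelium to −0.64 ± 0.22 in fibroblasts. Only in fibroblasts did the groups not overlap, with 121, 111 and 128 CPM against 211, 161, 198 and 191 (−0.67 within the set). Within set P1117 the fold changed sign in connecting tubule (0.052), distal convoluted tubule (0.17) and endothelium (0.018). The 2 libraries of set P1117B had the highest Fgfr1 levels in connecting tubule and distal convoluted tubule, and in endothelium 2-kidney replicate 1 lay between them. Fgfr3 passed the filter in 3 classes, with folds of −0.26 ± 0.20 in proximal tubule, −0.41 ± 0.37 in cycling nuclei and −0.79 ± 0.43 in intercalated cells, and the groups overlapped in each. In cycling nuclei the Fgfr3 fold turned to 0.13 within set P1117.

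**Figure D3:**
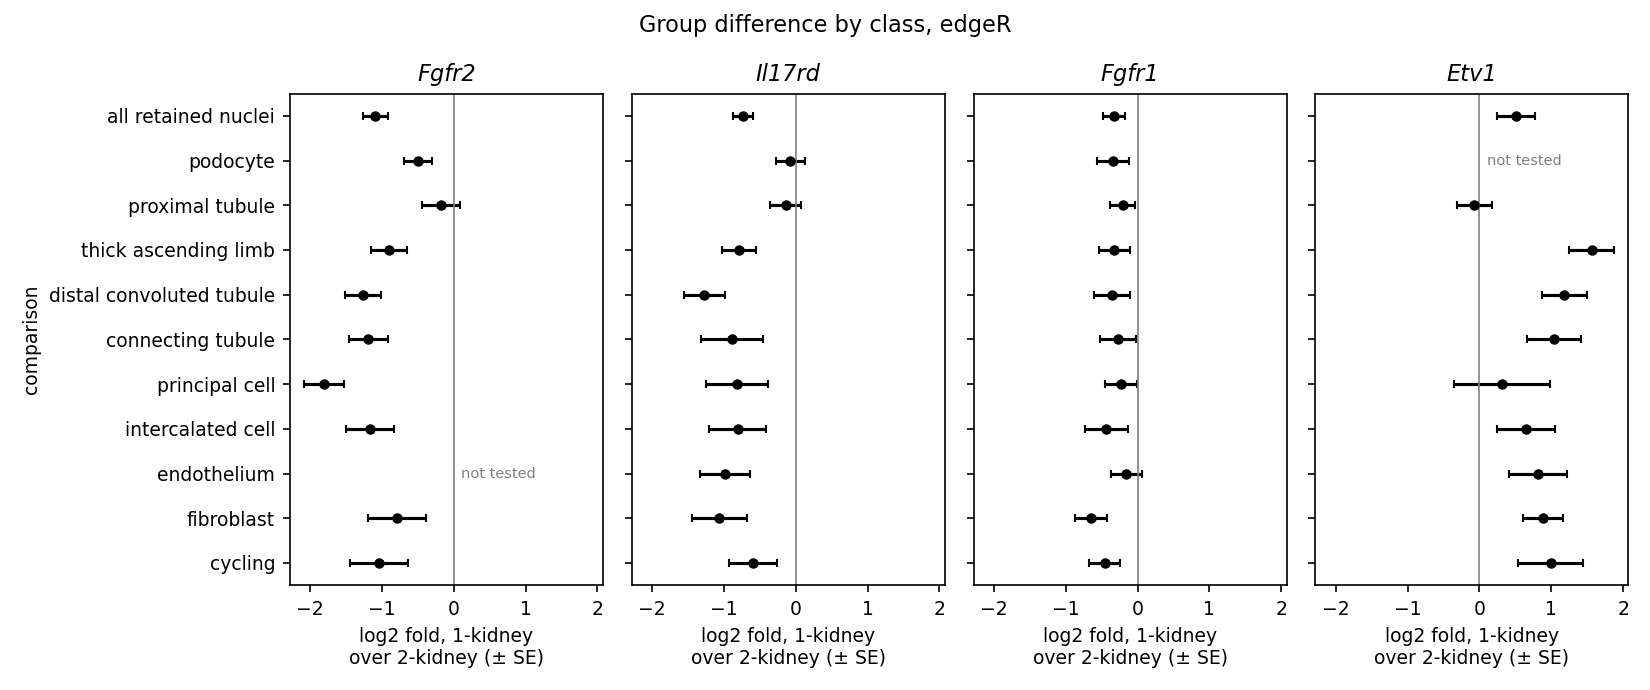
Log2 fold of 4 genes, 1-kidney over 2-kidney (horizontal axis), in all retained nuclei and in 10 classes (rows). Points are edgeR estimates, bars are ± SE, and the grey line marks no difference. Fgfr2 runs from −1.80 in principal cells to −0.18 in proximal tubule, Il17rd and Fgfr1 stay left of the line in every class, and Etv1 lies right of it in 8 of 9 classes.

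Etv1 stood on the other side. Its fold was above 0 in 8 of 9 classes tested, and in 4 of them every 1-kidney library lay above every 2-kidney library. These were connecting tubule, distal convoluted tubule, fibroblasts and thick ascending limb, where 7.3%, 6.32%, 6.23% and 5.94% of all genes were higher without overlap. In the thick ascending limb Etv1 was at 48.4, 61.3 and 40.2 CPM against 20.5, 21.1, 16.9 and 11.2, a log2 fold of 1.56 ± 0.32 (1.23 within set P1117). These levels rested on 69 and 67 UMIs.

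In the distal convoluted tubule Etv1 was at 49.1, 71.5 and 50.8 CPM against 34.0, 29.9, 24.7 and 15.9, a fold of 1.18 ± 0.31 (0.83 within the set). In connecting tubule it was at 47.0, 47.4 and 44.1 against 39.4, 29.1, 9.62 and 18.7, a fold of 1.04 ± 0.38 that was 0.43 within the set. Fibroblasts held 77.2, 77.7 and 84.0 against 49.8, 40.3, 37.1 and 46.6, with 0.88 ± 0.28 (0.78 within the set). In thick ascending limb, distal convoluted tubule and connecting tubule the libraries of set P1117B held the 2 lowest Etv1 levels.

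In the proximal tubule the groups overlapped. Etv1 there was at 45.1, 50.9 and 38.7 CPM against 56.6, 41.0, 59.3 and 28.8, and the fold of −0.070 ± 0.25 turned to 0.26 with classes by marker score. The cluster with Slc22a8 as its leading marker, where Etv1 was higher, held 98, 141 and 176 nuclei against 155, 444, 807 and 694. The cluster with Slc7a13 held 496, 752 and 793 against 545, 852, 791 and 858. The part of this mix in the proximal tubule fold was not tested. Principal cells had 0.32 ± 0.67, which turned to −0.48 within set P1117, and 2-kidney replicate 1 had their highest level (52.1 CPM). Over all nuclei 2-kidney replicate 1 held 69.9 CPM, beside 43.0, 44.7 and 25.0 in the other 2-kidney libraries and 55.9 to 74.2 in the 1-kidney libraries.

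In the classes where Etv1 was higher without overlap, proximal tubule transcripts were also higher on average in the 1-kidney libraries. Within a group, the order of libraries by these transcripts was not always their order by Etv1. The summed level of 15 proximal tubule markers in thick ascending limb nuclei was 10383 to 16262 CPM in the 1-kidney and 5321 to 11574 in the 2-kidney libraries, and 14 of 14 tested markers had a fold above 0 (median 0.67). In distal convoluted tubule the sums were 21434 to 25984 against 9204 to 21195 with 12 of 14 above 0, in connecting tubule 17912 to 22960 against 8622 to 16956 with 12 of 14, and in fibroblasts 26509 to 37322 against 13235 to 23852 with 13 of 14. Macula densa markers in thick ascending limb nuclei summed to 80.6 to 144 against 71.8 to 138 CPM. In principal cells the sums of proximal tubule markers were 16506 to 26306 against 4708 to 18223 CPM, while the Etv1 levels of the groups overlapped. The part of proximal tubule transcripts in the Etv1 values was not tested. With classes by marker score the thick ascending limb fold was 0.94 and that of distal convoluted tubule 0.63.

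**Figure D4:**
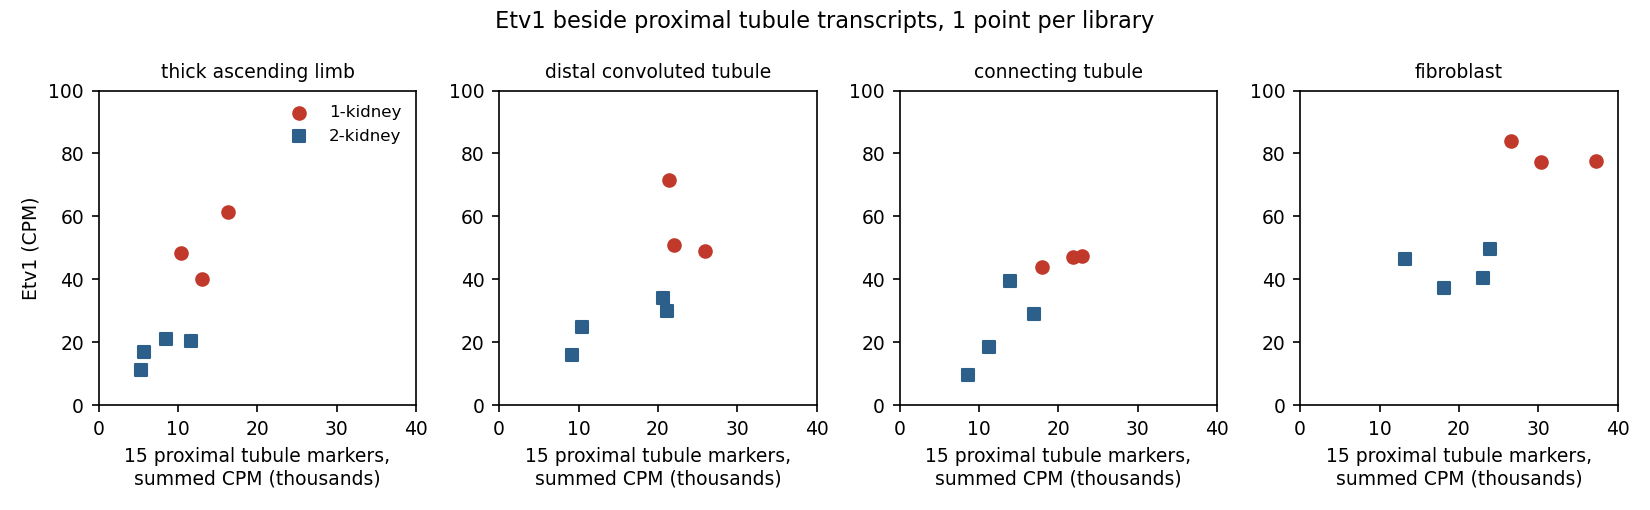
Etv1 level (CPM, vertical axis) against the summed level of 15 proximal tubule markers (CPM divided by 1000, horizontal axis) in nuclei of 4 classes, 1 point per library, red circles for 1-kidney (n = 3) and blue squares for 2-kidney (n = 4). In each panel every circle lies above every square, for example 40.2 to 61.3 against 11.2 to 21.1 in thick ascending limb, and the circles also lie to the right in 3 of the panels, with overlap along the horizontal axis in thick ascending limb.

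For the other inhibitors and Etv5 the UMIs were few. Dusp6 in principal cells was at 17.7, 21.5 and 26.5 CPM against 11.4, 16.4, 6.43 and 9.08, higher without overlap, as were 8.39% of all genes there. Its log2 fold was 1.08 ± 0.43 (0.70 within the set) and rested on 29 and 34 UMIs. In its other 5 tested classes the folds ran from −0.013 ± 0.47 in endothelium to 0.76 ± 0.49 in cycling nuclei, and they changed sign within set P1117 in fibroblasts and proximal tubule. Spry1 had −0.81 ± 0.42 in fibroblasts, −0.53 ± 0.36 in endothelium, 0.59 ± 0.44 in principal cells and 0.24 ± 0.44 in proximal tubule. In intercalated cells Spry1 did not pass the filter on low counts, but it was at 21.2, 19.3 and 16.2 CPM against 4.83, 5.40, 9.41 and 10.3, higher without overlap, as were 4.75% of the genes tested there. These levels rested on 25 and 29 UMIs, and where Spry1 passed with 1 library left out the fold was 1.12 to 1.35. In connecting tubule 2 more genes below the filter did not overlap. Dusp6 was at 14.7 to 19.6 against 3.396 to 11.2 CPM, from 21 and 15 UMIs. Etv5 was at 0 to 4.90 against 6.41 to 8.49, from 3 and 15 UMIs. Of the genes tested there, 7.3% were higher and 7.28% lower without overlap. Spry4 had −0.95 ± 0.50 in endothelium, where 2-kidney replicates 3 and 4 held 35.8 and 58.8 CPM and the other 5 libraries 12.2 to 22.4, and this fold was −0.45 without 2-kidney replicate 4 and 0.13 with the set as a model term. Etv5 had −0.89 ± 0.39 in cycling nuclei, where 2-kidney replicate 4 held 55.4 CPM, and −0.55 without that library. Spry2 passed the filter in no class.

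The upstream sequences of the 3 genes with the widest group differences are shown because ETS factors, the output of the pathway, bind at GGAA. The RefSeq table of promoters (build GRCr8) had entries for 9 of the 10 genes, and Fgfr1 had none. Each line gives the 250 bases before the start site, 5′ to 3′ on the strand of the gene, with GGAA and its reverse TTCC in capitals. The windows are chr1:194280915-194281164 on the minus strand for Fgfr2, chr16:2234922-2235171 on the plus strand for Il17rd and chr6:61317179-61317428 on the plus strand for Etv1.
Fgfr2: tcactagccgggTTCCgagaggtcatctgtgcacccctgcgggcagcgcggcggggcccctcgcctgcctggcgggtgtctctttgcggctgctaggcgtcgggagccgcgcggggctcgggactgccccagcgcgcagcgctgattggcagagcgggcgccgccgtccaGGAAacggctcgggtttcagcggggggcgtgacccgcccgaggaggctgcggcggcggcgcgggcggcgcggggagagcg
Il17rd: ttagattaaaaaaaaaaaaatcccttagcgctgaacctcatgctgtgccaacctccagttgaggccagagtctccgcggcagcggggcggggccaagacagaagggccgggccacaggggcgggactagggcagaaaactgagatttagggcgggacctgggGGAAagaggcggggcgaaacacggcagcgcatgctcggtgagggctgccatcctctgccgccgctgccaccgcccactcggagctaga
Etv1: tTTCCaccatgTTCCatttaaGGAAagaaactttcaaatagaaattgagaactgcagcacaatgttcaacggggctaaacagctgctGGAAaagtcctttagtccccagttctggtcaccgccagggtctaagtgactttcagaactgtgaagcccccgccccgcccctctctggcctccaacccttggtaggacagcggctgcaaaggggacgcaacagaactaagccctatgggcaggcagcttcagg
The 4 letters, on either strand, occur 2 times in the Fgfr2 window, 1 time in that of Il17rd and 4 times in that of Etv1, beside a median of 3 over 33469 windows of the same length, 93.2% of which hold at least 1. The longer form CCGGAA, which contains GGAA, occurs on either strand in 12.6% of the windows and in those of Spry2 and Spry4 among these genes. CCGGAAGT occurs in 3.1% and in none of the 9 genes. In Spry2, one of its RefSeq start sites has CCGGAA in chr15:89112079-89112108, shown on the minus strand of the gene as ccctgcctcctCCGGAAaggcgagggcgca with the letters in capitals. Such a match is a description of the letters and no evidence of binding.

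A list of 69 other pathway genes was read beside the 10, of which 68 were in the tables. Over all nuclei 60 were tested, 44 had a fold below 0 and 16 above, where 50.9% of all genes were below 0. With edgeR 0 passed, and 17 did so at an unadjusted p under 0.05, where 20.6% of all genes did. Their median log2 fold was −0.22, beside −0.0092 for all genes. By role the medians were −0.28 for 9 ligands, −0.32 for 10 receptors and co-receptors, −0.16 for 20 genes of the signal relay, −0.22 for 9 of the feedback genes and −0.13 for 12 transcription factors and immediate targets. The lowest folds were those of Fgf7, a ligand made by stromal cells (−1.46 ± 0.57, at 0.312 ± 0.0432 against 0.817 ± 0.486 CPM), and the heparan sulphate carrier Sdc1 (−0.77 ± 0.30). The highest were those of the ETS factor Etv4 (0.80 ± 0.31) and of Myc (0.59 ± 0.38).

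In fibroblasts 2 of 40 pathway genes tested passed as lower and 0 as higher, in a class where 0.978% of all genes passed in either direction. Gpc3, a cell surface heparan sulphate carrier, was at 17.1 ± 5.62 CPM against 73.9 ± 8.15 (SD, n = 3 and 4), a log2 fold of −1.96 ± 0.36 (edgeR adjusted p = 0.0168). Fgf12, an intracellular relative of the secreted ligands, was at 71.8 ± 23.3 against 169 ± 23.0, a fold of −1.23 ± 0.27 (edgeR adjusted p = 0.0381). Both calls were lost without 1-kidney replicate 1 (edgeR adjusted p = 0.0749 and 0.123), without 1-kidney replicate 2 (0.187 and 0.277) and with classes by marker score (0.149 each), and that of Fgf12 also with predicted doublets kept (0.0903). In the 3 settings that lost both calls the folds were −1.87, −1.97 and −1.82 for Gpc3 and −1.22, −0.96 and −1.40 for Fgf12, and with doublets kept that of Fgf12 was −1.08. DESeq2 gave no adjusted p for Gpc3. The fibroblast markers were themselves lower in these nuclei (4 of 4 tested, median −0.99, summed 396 to 544 against 783 to 985 CPM, Lum at 0 in every library), and their part in these values was not tested. Fgf13 (0.86 ± 0.48) and the immediate early gene Fos (1.44 ± 0.74) had the highest folds, neither past the threshold.

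In the other 9 classes 0 of 33 to 51 pathway genes tested passed with edgeR, while 3 to 9 did so at an unadjusted p under 0.05, beside 9.77% to 17.6% of all genes. Map2k2, the gene of the relay kinase Mek2, was among the 2 highest in 4 classes. Its fold was 0.85 ± 0.23 in distal convoluted tubule (0.52 within the set), 0.72 ± 0.28 in podocytes (0.57), 0.60 ± 0.20 in intercalated cells (0.38) and 0.32 ± 0.29 in endothelium, where it turned to −0.13 within the set. Flrt2, a membrane protein that binds FGF receptors, was at 126 ± 49.97 against 300.1 ± 67.5 CPM in endothelium, a fold of −1.14 ± 0.24. Ksr1, a scaffold of Raf and Mek, had −0.59 ± 0.19 in podocytes, and the immediate early gene Egr1 had 1.33 ± 0.46 there. In the proximal tubule Kl, the klotho co-receptor of the hormone Fgf23, was at 260 ± 14.2 against 429 ± 116 CPM, with −0.74 ± 0.22 (−0.45 within the set).

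The ligands and co-receptors had class patterns of their own. Fgf9 was at 365 ± 62.5 CPM in thick ascending limb and 280 ± 58.1 in distal convoluted tubule, and Fgf1 at 213 ± 129 in mural cells and 112 ± 26.6 in thick ascending limb (SD, n = 7). Kl was at 939 ± 154 in connecting tubule and 468 ± 101 in distal convoluted tubule. Flrt2 reached 1183 ± 325 in podocytes, the class with the highest Fgfr2 level, and Gpc4, another heparan sulphate carrier, 640 ± 179 in proximal tubule. The remaining receptor, Fgfr4, was highest in the proximal tubule at 49.98 ± 6.18, where Fgfr2 was lowest.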

How the data were processed

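Nuclei of 7 rat kidney pieces were profiled with 10x 3' v3.1 chemistry and counted with Cell Ranger 7.0, per the labels' protocols and the submitters' processing notes. No source used here names a genome build or an annotation. The deposited values are raw UMI counts per gene and barcode. Of 37048 barcodes, those under 200 genes or over 5% mitochondrial UMIs were dropped, and 31384 nuclei were left after doublet removal. Scrublet's own threshold marked 0 to 4 barcodes per library, so the nuclei with the highest doublet scores were removed, at a rate of 0.8% for each 1000 nuclei of the library. Clustering used scanpy 1.11.5 and leidenalg 0.10.2 (python 3.11.15) with 10000 counts per nucleus, 2000 variable genes, 30 components, 20 neighbours and resolution 1, and gave 26 clusters named by marker lists. The doublet rule, the name connecting tubule for cluster 9 and leaving cluster 24 unnamed were chosen after seeing the data.

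Raw counts were summed per library and class. Classes with at least 50 nuclei in each library (10) and all nuclei were tested with the quasi-likelihood test of edgeR 4.0.16 (R 4.3.3; TMM, filterByExpr, two-sided, Benjamini-Hochberg adjustment over all genes tested). DESeq2 1.42.0 and the other alternatives are given at the end. The script was tested on simulated data. Replicate p-values measure the spread between these libraries. All 10 genes are named, with the 3 genes most alike in class profile (those of the sparse genes are not all printed) and the 2 lowest and 2 highest folds of the pathway list per comparison, of which 1 gene is not reported here. The genes and lists were chosen with earlier results of these data known.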

Additional observations from a re-analysis of the deposited data

Results flagged for a closer look

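In 3 of 65 groups of 4 libraries examined, 1 library lay far from the other 3 by Dixon's ratio, and chance flags about 1 group in 20. In all retained nuclei 2-kidney replicate 2 was low for Fgfr1, at 92.7 CPM with the next library at 128, and for Fgfr2, at 52.2 CPM with the next at 69.5. In cycling nuclei 2-kidney replicate 3 was high for Fgfr2, at 71.7 CPM with the next at 32.4. The groups of 3 libraries were not examined in this way.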

How the results depend on the processing

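Of the alternative values of single log2 folds of the 10 genes, 801 kept their direction and side of the threshold, 28 passed it and 61 changed sign. The Fgfr2 folds and those of Il17rd outside podocytes were below 0 under every alternative run. RLE factors moved no count beyond 1.5 times. The cause of the changes below was not tested. No paired analysis was possible because the replicate numbers were given in accession order and pair no libraries.

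The main edgeR fit called 0 of the 10 genes in every comparison, and 0 genes in all nuclei, 21 in connecting tubule, 0 in cycling nuclei, 0 in distal convoluted tubule, 4 in endothelium, 67 in fibroblasts, 0 in intercalated cells, 3 in podocytes, 0 in principal cells, 1 in thick ascending limb and 0 in proximal tubule. DESeq2 called 469 genes in all nuclei (2 of the 10), 56 in connecting tubule, 43 in cycling nuclei, 31 in distal convoluted tubule (2 of the 10), 18 in endothelium, 118 in fibroblasts, 5 in intercalated cells, 97 in principal cells (1 of the 10), 63 in thick ascending limb and 117 in proximal tubule. With no filter on low counts edgeR called 209 in connecting tubule (1 of the 10), 219 in cycling nuclei, 160 in distal convoluted tubule (3 of the 10), 112 in endothelium, 240 in fibroblasts, 94 in intercalated cells, 60 in podocytes, 333 in principal cells (1 of the 10), 190 in thick ascending limb (2 of the 10) and 52 in proximal tubule, and the folds were −0.064 for Dusp6 in fibroblasts and −0.026 for Spry1 in all nuclei.

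With the library set as a term 8 genes passed in cycling nuclei, 12 in distal convoluted tubule, 15 in endothelium, 120 in fibroblasts, 0 in podocytes and 11 in thick ascending limb. Folds that changed sign with that term were Fgfr3 0.18, Spry1 −0.048, Spry4 0.075, Dusp6 −0.14 and Etv5 0.035 in all nuclei, Fgfr1 0.056 in connecting tubule, 0.18 in distal convoluted tubule and 0.018 in endothelium, Fgfr3 0.13 in cycling nuclei, Spry4 0.13 in endothelium, Dusp6 −0.51 in fibroblasts and −0.26 in proximal tubule, Il17rd 0.12 in podocytes, Etv1 −0.49 in principal cells and Spry1 −0.10 in proximal tubule. Among pathway genes they were Spred1 0.17 in connecting tubule, Map2k2 −0.13 in endothelium and Fgf18 0.38 in principal cells.

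Without set P1117B 9 genes passed in connecting tubule, 2 in cycling nuclei, 14 in distal convoluted tubule (1 of the 10, Il17rd), 12 in endothelium, 7 in intercalated cells, 0 in podocytes, 12 in thick ascending limb and 6 in proximal tubule. Folds that changed sign were Fgfr3 0.16, Spry1 −0.066, Spry4 0.055, Dusp6 −0.16 and Etv5 0.016 in all nuclei, Fgfr1 0.052 in connecting tubule, 0.17 in distal convoluted tubule and 0.018 in endothelium, Fgfr3 0.13 in cycling nuclei, Dusp6 −0.52 in fibroblasts and −0.25 in proximal tubule, Il17rd 0.13 in podocytes, Etv1 −0.48 in principal cells, Spry1 −0.095 in proximal tubule, Spred1 0.17 in connecting tubule and Map2k2 −0.13 in endothelium.

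With classes by marker score 2 genes passed in connecting tubule, 3 in fibroblasts and 0 in thick ascending limb, and the folds that changed sign were Dusp6 0.12 in endothelium and −0.17 in fibroblasts, Etv1 0.26 and Etv5 0.17 in proximal tubule, Elk3 −0.13 in cycling nuclei, Fgf13 −0.13 in fibroblasts, Flrt2 −0.28 in intercalated cells and Elk1 −0.000145 in thick ascending limb. With predicted doublets kept 1 of the 10 passed in connecting tubule (Fgfr2), 0 genes in endothelium and 18 in fibroblasts, and Dusp6 was 0.043 in endothelium and Spry1 −0.019 in all nuclei. As a mean over nuclei Dusp6 in immune cells was 61.0 CPM in place of 38.6.

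Leaving out 1 library at a time gave 0 to 132 genes in connecting tubule (0 to 1 of the 10), 0 to 549 in cycling nuclei (0 to 1), 0 to 153 in distal convoluted tubule (0 to 3), 0 to 77 in endothelium, 0 to 151 in fibroblasts, 0 to 15 in intercalated cells, 0 to 170 in podocytes, 0 to 15 in principal cells (0 to 1) and 0 to 110 in thick ascending limb (0 to 1). Folds that changed sign in this way ranged from −0.11 to 0.079 for Spry1 and −0.33 to 0.11 for Etv5 in all nuclei, −0.29 to 0.33 for Dusp6 in endothelium, −0.57 to 0.71 in fibroblasts and −0.050 to 0.28 in proximal tubule, −0.19 to 0.015 for Il17rd in podocytes, −0.10 to 1.22 for Etv1 in principal cells and −0.24 to 0.10 in proximal tubule, −0.021 to 0.59 for Spry1 and −0.72 to 0.040 for Etv5 in proximal tubule. Fos in fibroblasts ranged from −0.84 (without 1-kidney replicate 3) to 2.69 and Fgf18 in principal cells from −2.57 to 0.0073. Depth limits the sparse genes: Spry2 had 417 UMIs in all.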
